A study of Bos taurus with 111 samples.

Results

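Muscle RNA was compared between feed-efficient and feed-inefficient Holstein-Friesian (HF) steers, castrated male cattle of a dairy breed, at the end of a feeding phase on zero-grazed grass (ZG), that is, fresh ryegrass cut and carried to the housed animals. The libraries were chosen by their labels for breed, diet and residual feed intake (RFI) class, and those with under 1000000 counts on genes were dropped. This left 19 of the 111 libraries of the series, from 9 low-RFI (L-RFI, efficient) and 10 high-RFI (H-RFI, inefficient) steers. HF-ZG was labelled with 10 steers of each class, and the dropped library, of L-RFI steer 1909, held 30681 counts.

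The wider study also sampled Charolais (CH) steers, and high concentrate phases before (H1) and after (H2) the grass. The HF steers averaged 306 days of age when the first phase began and 441 kg when the grass phase began, and intake was recorded over 70 days. RFI class is a rank within breed and diet, the most extreme animals were taken, and a steer could change class between phases. Biopsies of M. longissimus thoracis et lumborum, a loin muscle, were sequenced after selection of mRNA. Of the 19 steers, 8 also had a library of at least 1000000 counts in another phase, and 3 of these were L-RFI on grass and H-RFI in H1.

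RFI is the feed an animal eats beyond what its size and growth predict, so an L-RFI steer eats less than predicted for the same gain. Skeletal muscle is a main user of energy in the body, spending it on contraction, calcium cycling, protein turnover and mitochondrial respiration. A biopsy of it also holds blood, vessels, fat, connective tissue and resident immune cells, and its RNA is the sum over all of them. The question of the comparison was which transcripts differed in level between the classes on a forage diet.

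The depth was 3875025 to 49093603 counts on genes, and it did not separate the classes (mean log10 counts 7.22 in L-RFI and 7.15 in H-RFI, two-sided exact permutation test, p = 0.626). A level of 3 counts, taken as the floor of a library, was 0.0611 to 0.774 CPM (counts on a gene in every 1000000), a limit of counting error only. Some levels printed below rest on fewer than 3 counts. Identical counts were found in 0 of 171 pairs of libraries. Levels below are CPM normalized by edgeR's TMM factors, and a negative log2 fold change means a lower level in L-RFI steers. The markers that define muscle fibres, such as ACTA1, TTN and the main myosins, carry no name in the table of names at hand and were not analysed here. Other fibre genes were present in every library: MYH6, a slow myosin heavy chain, lay between 186 and 891 CPM, and PLN, the phospholamban that restrains the calcium pump of slow fibres, between 54.9 and 821 CPM.

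5 libraries stood apart from the other 14, namely L-RFI steers 1668, 2064 and 5632 and H-RFI steers 2242 and 5633. Between 6.21% and 8.41% of their reads fell on no annotated gene, against 10.1% to 17.04% in the others. They had the fewest genes at 1 CPM or more (8365 to 9328, against 9625 to 11669), and TMM factors of 0.467 to 0.720 against 0.786 to 1.51. On the first principal component, which held 51.5% of the variance, they took the 5 highest places, at 41.0 to 112.8 against -49.7 to 31.5. The share of reads on no gene had a mean of 10.8% ± 3.19 among the L-RFI steers (SD, n = 9) and 13.8% ± 3.58 among the others (SD, n = 10). That difference missed 0.05 (two-sided exact permutation test, p = 0.0699). Values are therefore given below with all libraries and, where they matter, without these 5, which leaves 6 L-RFI and 8 H-RFI steers. This second setting was chosen after seeing the data.

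**Figure D1:**
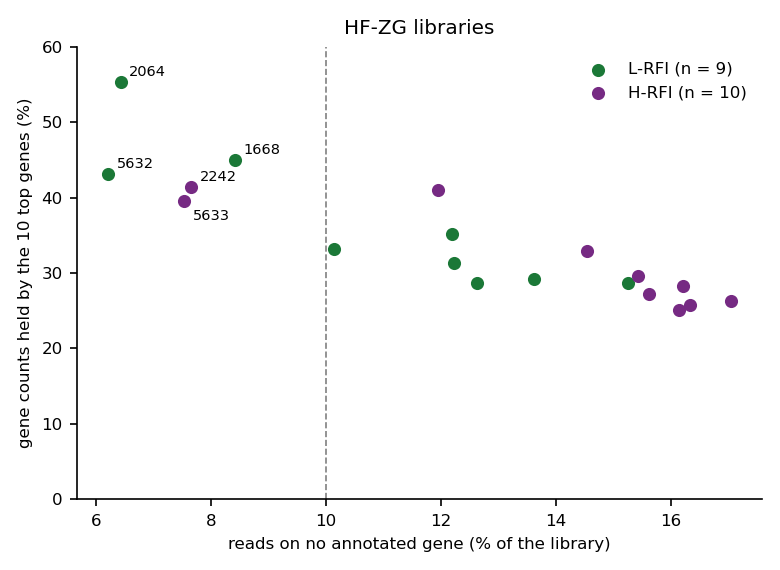
Each point is 1 HF-ZG library, with the percent of its reads on no annotated gene on the x axis and the percent of its gene counts held by its 10 top genes on the y axis. The 5 labelled libraries, left of the dashed line at 10%, hold 39.6% to 55.3% of their counts in 10 genes. The other 14 hold 25.1% to 41.0%, so the ranges overlap on the y axis. Green is L-RFI and purple is H-RFI.

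Of 10571 genes tested, 0 (0% of the genes tested) passed an adjusted p under 0.1 with a fold change above 1.5, and the smallest adjusted p was 0.381 (edgeR's quasi-likelihood test, Benjamini-Hochberg adjustment). At an unadjusted p under 0.05, 1228 genes (11.6%) were found, 705 (6.67%) lower and 523 (4.95%) higher in L-RFI steers. edgeR's exact test called 0 genes, with 1420 at an unadjusted p under 0.05, and limma voom called 0, with 1235. DESeq2's Wald test called 1 gene (0.00946%), with 1497 (14.2%) at an unadjusted p under 0.05, and the gene was ENSBTAG00000039727, for which no name was at hand. Its level was 2.16 to 3.95 CPM in L-RFI (median 3.21) and 1.25 to 2.89 CPM in H-RFI steers (median 1.78). The classes overlapped, and its log2 fold change was 0.78 by DESeq2 (adjusted p = 0.0749) and 0.74 by edgeR (adjusted p = 0.381).

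The outcome turned on which libraries counted. Without the 5 libraries, 629 of 10949 genes (5.74%) were called, 394 (3.6%) lower and 235 (2.15%) higher in L-RFI steers, and 27.5% of genes had an unadjusted p under 0.05. limma voom with sample quality weights called 1742 genes (16.5%). It gave 4 of the 5 libraries a weight of 0.178 to 0.246 and steer 2064 one of 0.696. The other 14 libraries had 0.563 (L-RFI steer 5635) to 2.75. With the share of reads on no gene as a covariate, edgeR called 0 genes (0%), and 132 (1.25%) had an unadjusted p under 0.05. The part of these libraries in each result below was not tested beyond these settings.

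**Figure D2:**
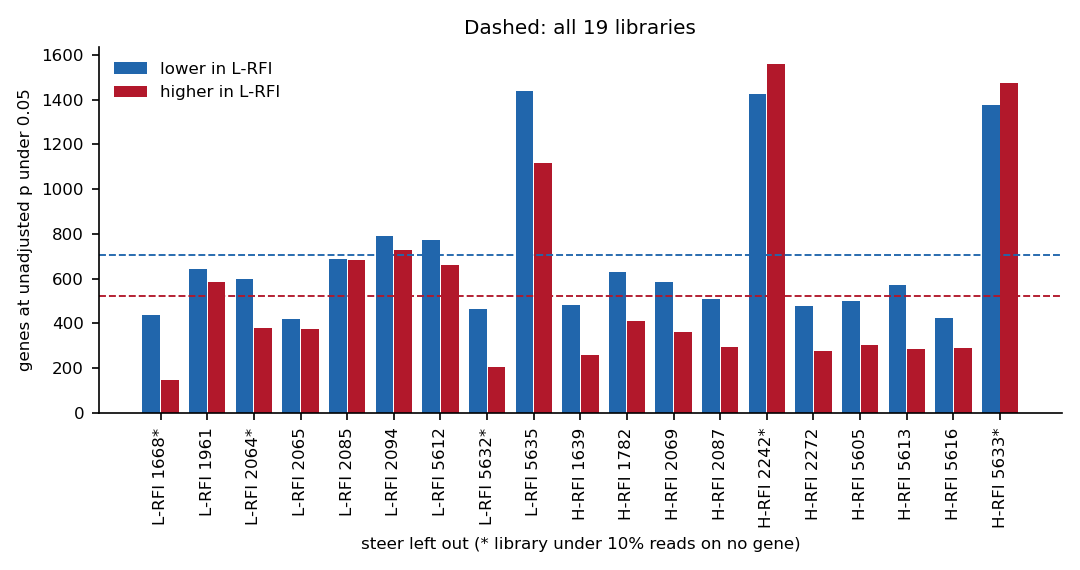
Bars give the number of genes at an unadjusted p under 0.05 when the steer on the x axis is left out, blue for genes lower and red for genes higher in L-RFI; dashed lines are all 19 libraries (705 and 523). Leaving out H-RFI steers 2242 or 5633 or L-RFI steer 5635 gives the tallest bars, and leaving out L-RFI steer 1668 leaves 147 genes higher in L-RFI.

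Only 134 of the tested genes have a name at hand. Names came from the study's own table of differing genes over all its comparisons, so the named genes were picked on these samples and their direction is not independent evidence. Of the 87 genes which that table lists for HF-ZG, 77 were in the files and 66 were tested, of which 46 were lower and 20 higher in L-RFI and 0 were called. Without the 5 libraries, 25 of these 66, with or without a name, were called, 18 lower and 7 higher, against 5.74% of all genes tested there.

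Most white blood cell transcripts that could be tested lay lower in L-RFI steers. Of 25 myeloid genes listed, 13 were tested. Of these, 12 had a negative log2 fold change and 4 an unadjusted p under 0.05, with a median of -1.02 against -0.03 over all genes tested, of which 52% were negative and 48% positive. Of 23 lymphocyte genes, 6 were tested, all 6 were negative, and 3 had an unadjusted p under 0.05 (median -1.14). Called genes numbered 0 in both lists, and 6.67% of all genes tested were lower at an unadjusted p under 0.05. In these and the lists below, genes could be tested only where the study's table of differing genes named them. The counts are thus not independent evidence. PLEK, the 1 positive myeloid gene (0.11), is not on the study's list for HF-ZG. In a biopsy, fewer cells of a type and less RNA per cell cannot be told apart.

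SNX10 (ENSBTAG00000001822), a sorting nexin that serves vesicle acidification in macrophages and osteoclasts, had the smallest p among named genes. Its level was 0.149 to 1.60 CPM in L-RFI (median 0.747) and 0.288 to 6.18 CPM in H-RFI steers (median 2.39). All 9 L-RFI steers lay below the H-RFI median, and the classes overlapped, with H-RFI steers 5633, 2242 and 1782 below the highest L-RFI steer. The log2 fold change was -1.75 (SE 0.47, unadjusted p = 0.00111, adjusted p = 0.381) and -1.79 without the 5 libraries (adjusted p = 0.0687). With the share of reads on no gene as a covariate it was -0.71 (unadjusted p = 0.125).

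CTSS (ENSBTAG00000017135), the lysosomal protease cathepsin S of antigen-presenting cells, was at 0.996 to 5.64 CPM in L-RFI (median 4.33) and 2.501 to 17.4 CPM in H-RFI steers (median 7.61), with a log2 fold change of -1.12 (SE 0.36). Here too all 9 L-RFI steers were below the H-RFI median, and the ranges overlapped. SRGN (ENSBTAG00000017863), the granule proteoglycan serglycin, was at 1.22 to 14.2 CPM in L-RFI (median 2.99) and 1.83 to 31.5 CPM in H-RFI steers (median 8.83). Steer 2064 was the highest of its class and steer 1639 the highest of H-RFI. Without the 5 libraries both genes were called, at log2 fold changes of -1.08 and -1.89 (adjusted p = 0.0687 for each), and with the share of reads on no gene as a covariate they had -0.39 and -0.81 (unadjusted p = 0.201 and 0.220).

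The more familiar markers were less steady. LYZ (ENSBTAG00000026779), lysozyme, ranged from 0.0996 to 8.65 CPM in L-RFI (median 0.802) and from 0.288 to 22.8 CPM in H-RFI steers (median 3.27). The high values were H-RFI steer 1639 and L-RFI steer 2064. In the fit, the log2 fold change was -1.55 (SE 0.75, unadjusted p = 0.0512), -0.83 without steer 1639 and -0.59 with the covariate. CSF3R, the receptor of the granulocyte growth factor, was at 30.6 CPM in L-RFI steer 2064 and 15.3 CPM in H-RFI steer 1639, and its log2 fold change was -0.38 (SE 0.82), -1.69 without steer 2064 and -0.066 without steer 1639.

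PTPRC (ENSBTAG00000023144), the pan-leukocyte phosphatase CD45, ranged from 0.199 to 7.85 CPM in L-RFI (median 1.96) and from 0.575 to 33.4 CPM in H-RFI steers (median 6.38). 8 of 9 L-RFI steers lay below the H-RFI median, with H-RFI steers 2242, 5633 and 1782 also low. The fitted log2 fold change was -1.67 (SE 0.67, unadjusted p = 0.0201), -1.07 without H-RFI steer 1639, and -0.24 with the share of reads on no gene as a covariate (unadjusted p = 0.740). ZAP70, a kinase of the T cell receptor, had a log2 fold change of -1.53 (SE 0.59), while CD3E, a chain of that receptor, had -0.59 (SE 0.58), -0.033 without steer 1639, -1.33 without L-RFI steer 2064 and -1.55 without the 5 libraries.

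Summed over the 14 myeloid genes present, H-RFI steer 1639 stood at 166 CPM (H-RFI median 44.2) and L-RFI steer 2064 at 113 CPM (L-RFI median 15.95). The lymphocyte sum over 9 genes was likewise highest in these 2 steers, at 110 and 48.2 CPM. Without steer 1639 the list medians were -0.57 for myeloid and -0.68 for lymphocyte genes. Without the 5 libraries they were -1.40 and -1.64, and with the share of reads on no gene as a covariate they were -0.61 and -0.77. Of the red cell and platelet list, 2 genes were present, 1 was at 0 in every library and 0 were tested.

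Of 6 tested genes of the interferon response, 5 were negative, with a median of -0.98, or -0.43 without H-RFI steer 2272. Among the 6, 2 were lower at an unadjusted p under 0.05, against 6.67% of all genes tested. The 5 negative genes are on the study's list for HF-ZG, so their direction is not independent evidence. MX1, which is not on it, had 0.48 (SE 0.56), and -0.54 without L-RFI steer 2064. IDO1 (ENSBTAG00000020602), which degrades tryptophan in inflamed tissue, was at 0.448 to 15.1 CPM in L-RFI (median 1.62) and 0.962 to 63.6 CPM in H-RFI steers (median 3.87). H-RFI steer 2272 was far above the rest. The log2 fold change was -1.64 (SE 0.77, unadjusted p = 0.0457), -0.51 without that steer and -0.71 with the covariate.

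UBD (ENSBTAG00000027246), a ubiquitin-like protein induced by cytokines, was at 0.199 to 3.81 CPM in L-RFI (median 0.747) and 0.564 to 8.86 CPM in H-RFI steers (median 2.24). 7 of 9 L-RFI steers were below the H-RFI median, and the log2 fold change was -1.44 (SE 0.57, unadjusted p = 0.0192). CASP4, an inflammatory caspase, had -0.94 (SE 0.49), and -1.33 without the 5 libraries, where it was called (adjusted p = 0.0687), but -0.25 with the covariate (unadjusted p = 0.675).

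**Figure D3:**
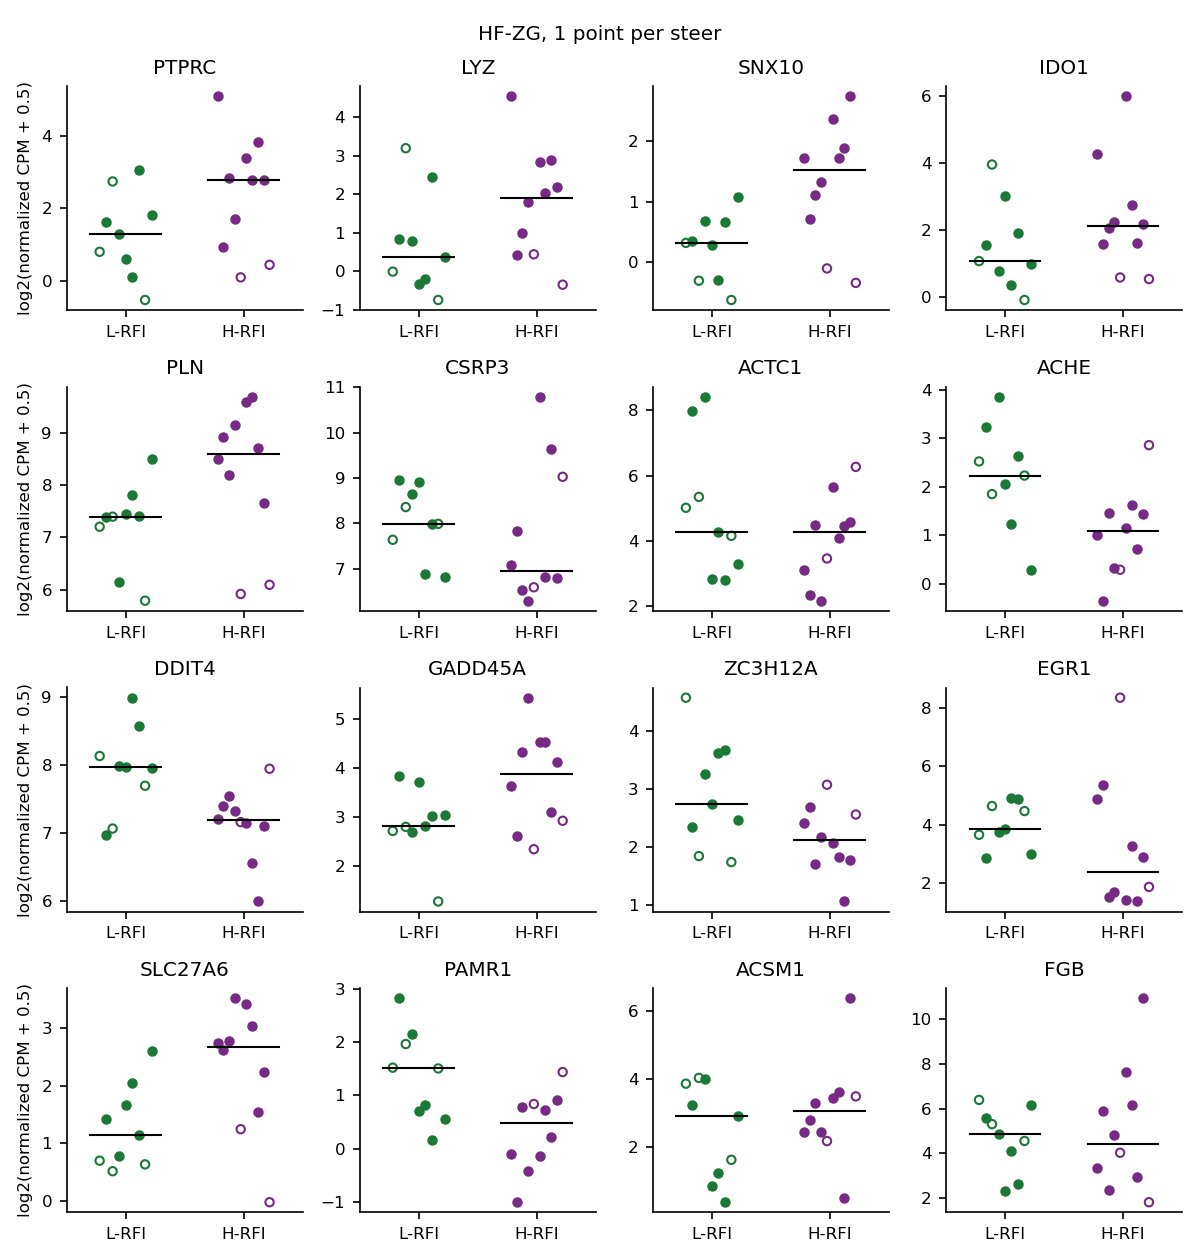
Each panel shows 1 gene on a scale of log2(normalized CPM + 0.5), with 1 point per steer and a black line at the class median; open circles are the 5 libraries under 10% reads on no gene. The 2 classes overlap in every panel, and SNX10, PLN, GADD45A and SLC27A6 have all 9 L-RFI steers below the H-RFI median. EGR1 has all 9 above it, and single H-RFI steers set the range of FGB, ACSM1, EGR1, IDO1 and CSRP3.

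Muscle fibre genes did not move together. Of 4 slow fibre genes tested, 1 had an unadjusted p under 0.05 (11.6% of all genes tested), and the median was 0.01. PLN (ENSBTAG00000012931) was at 54.9 to 361 CPM in L-RFI (median 168) and 60.1 to 821 CPM in H-RFI steers (median 389). All 9 L-RFI steers were below the H-RFI median, and the lowest 3 of all were steers 5632, 2242 and 5633. In the fit, the log2 fold change was -1.24 (SE 0.43, unadjusted p = 0.00852), and -1.33 without the 5 libraries (adjusted p = 0.0687). With the share of reads on no gene as a covariate it was -0.45 (unadjusted p = 0.295).

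CSRP3 (ENSBTAG00000011869), the muscle LIM protein of the Z-disc, was above the H-RFI median in 7 of 9 L-RFI steers. Its level was 113 to 495 CPM in L-RFI (median 254) and 78.2 to 1763 CPM in H-RFI steers (median 124). H-RFI steers 2272 and 5613, at 1763 and 800 CPM, were the highest of all. The fitted log2 fold change was -0.42 (SE 0.55), and 0.28 without steer 2272. The same 2 steers led METTL21C, a muscle lysine methyltransferase, at 64.8 and 32.3 CPM, where the H-RFI median was 3.21 CPM. MYL6B, a slow myosin light chain, was highest in L-RFI steer 5632 (1897 CPM) and H-RFI steer 2272 (1762 CPM), and the lowest L-RFI steer was at 110 CPM. For MYH4, the fast IIb myosin, all levels were 0.747 to 4.01 CPM.

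Of 6 tested genes tied to fibre development and the nerve contact, 5 were positive and 3 had a positive value with an unadjusted p under 0.05 (median 1.17), against 48% and 4.95% of all genes tested. The median was 0.74 without L-RFI steer 1668 and 0.45 with the share of reads on no gene as a covariate. The 3 genes at that p, ACHE, ACTC1 and SYN1, are all on the study's list for HF-ZG, so these counts are not independent evidence. CHRND and MYH8, which are not on it, had unadjusted p = 0.0660 and 0.956 (edgeR's quasi-likelihood test). ACTC1 (ENSBTAG00000005714), the cardiac actin of developing muscle, was at 6.42 to 340 CPM in L-RFI and 3.98 to 76.5 CPM in H-RFI steers, with a median of 18.9 CPM in each class. Its log2 fold change of 1.76 (SE 0.74, unadjusted p = 0.0270) came with 2 L-RFI steers, 2065 and 1961, at 340 and 253 CPM, above every other steer. Without steer 2065 it was 1.01. ACHE (ENSBTAG00000001139), the acetylcholinesterase of the neuromuscular junction, was at 0.713 to 13.9 CPM in L-RFI (median 4.18) and 0.282 to 6.73 CPM in H-RFI steers (median 1.62). 8 of 9 L-RFI steers lay above the H-RFI median. Its log2 fold change was 1.36 (SE 0.46), and 1.78 without the 5 libraries, where it was called (adjusted p = 0.0692).

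Regulators of growth and stress split in direction. Of 5 tested genes of the FOXO and atrophy list, 1 was lower and 2 were higher at an unadjusted p under 0.05. Over all genes tested, 6.67% were lower and 4.95% higher at that p. The list median was -0.78, or -0.10 without H-RFI steer 2272. DDIT4 (ENSBTAG00000000163), also called REDD1, an inhibitor of the growth kinase mTORC1, was at 124 to 506 CPM in L-RFI (median 250) and 63.0 to 245 CPM in H-RFI steers (median 144). 7 of 9 L-RFI steers exceeded the H-RFI median, and L-RFI steers 2094 and 5612 were highest. The log2 fold change was 0.83 (SE 0.26, unadjusted p = 0.00397, adjusted p = 0.381), 1.11 without the 5 libraries (adjusted p = 0.0687), and 0.86 with the share of reads on no gene as a covariate (unadjusted p = 0.00328). It lay between 0.66 and 0.95 with any 1 steer left out.

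ATG101, a subunit of the complex that starts autophagy, was at 23.0 to 142 CPM in L-RFI (median 43.9) and 15.1 to 62.9 CPM in H-RFI steers (median 24.1), with a log2 fold change of 1.04 (SE 0.37) and 1.48 without the 5 libraries (adjusted p = 0.0728). GADD45A (ENSBTAG00000013860), a stress gene induced in muscle atrophy, lay the other way, at 1.94 to 13.9 CPM in L-RFI (median 6.55) and 4.60 to 42.8 CPM in H-RFI steers (median 14.4). All 9 L-RFI steers were below the H-RFI median, H-RFI steer 2087 was highest, and the log2 fold change was -1.07 (SE 0.39, unadjusted p = 0.0110). Without the 5 libraries it was -1.02 and did not pass (adjusted p = 0.108). With the share of reads on no gene as a covariate it was -0.47 (unadjusted p = 0.199).

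Of 8 tested genes on a mixed list of mRNA decay and signalling feedback, 6 were positive, with a median of 0.45. Those at an unadjusted p under 0.05 were 3 (4.95% of all genes tested were higher at that p), namely ZC3H12A, PIM1 and MIDN. The 2 negative genes included NFKBIA (-0.37). The list mixes functions, so no direction is read for mRNA decay alone. The median was 0.22 without L-RFI steer 1668 and 0.25 with the covariate. ZC3H12A (ENSBTAG00000011316), the RNase Regnase-1 that degrades inflammatory mRNAs, was at 2.84 to 23.2 CPM in L-RFI (median 6.15) and 1.59 to 7.90 CPM in H-RFI steers (median 3.85). L-RFI steer 1668 was highest, and the log2 fold change was 1.07 (SE 0.36), 1.23 without the 5 libraries (adjusted p = 0.0687). PIM1, a growth-promoting kinase, had 0.95 (SE 0.37), and 1.26 without the 5 libraries (adjusted p = 0.0854).

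Immediate early genes, the first transcripts to answer a stimulus, had 13 tested members and a median of 0.34. Of these, 9 were positive and 0 had an unadjusted p under 0.05, against 48% and 11.6% of all genes tested. The median was 0.99 without the 5 libraries, 0.51 with the covariate, 0.15 without L-RFI steer 1668 and 0.72 without H-RFI steer 2242. With sample quality weights in limma voom it was 1.32, and 10 of the 13 were called, all higher, where 16.5% of all genes tested were called. NR4A3, an orphan nuclear receptor, reached 35.5 and 22.3 CPM in L-RFI steers 2094 and 5612, and 12.8 CPM in H-RFI steer 2242, with a log2 fold change of 1.13 (SE 0.74), 0.43 without steer 2094 and 2.26 without the 5 libraries. EGR1 (ENSBTAG00000010069) was at 6.73 to 29.9 CPM in L-RFI (median 13.9) and 2.10 to 323 CPM in H-RFI steers (median 5.08). All 9 L-RFI steers were above the H-RFI median, and H-RFI steer 2242, at 323 CPM, was far above every other steer. In the fit, the log2 fold change was -1.25 (SE 0.85) with that steer and 0.72 without it, and DESeq2 gave 0.68 with all steers.

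Matrix genes were split, 3 lower and 3 higher, each of the 6 at an unadjusted p under 0.05. Over all genes tested these shares were 6.67% and 4.95%. All 6 are on the study's list for HF-ZG, so the count is not independent evidence. PAMR1 (ENSBTAG00000012630), a secreted protein of regenerating muscle, was at 0.620 to 6.55 CPM in L-RFI (median 2.34) and 0 to 2.21 CPM in H-RFI steers (median 0.915). 8 of 9 L-RFI steers were above the H-RFI median, and the log2 fold change was 1.38 (SE 0.46, unadjusted p = 0.00617). CD248, a surface protein of pericytes and fibroblasts, had 1.30 (SE 0.46), 0.84 without L-RFI steer 1668 and 0.69 without the 5 libraries. NTN4, a basement membrane netrin, had -1.19 (SE 0.46), and -0.72 without H-RFI steer 5605. SOX18, the only endothelial gene tested, had 1.13 (SE 0.55, unadjusted p = 0.0496), and 0.72 without L-RFI steer 1668.

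Among genes of fat handling, SLC27A6 (ENSBTAG00000004860), a fatty acid transport protein, was at 0.927 to 5.61 CPM in L-RFI (median 1.71) and 0.481 to 10.96 CPM in H-RFI steers (median 5.94). All 9 L-RFI steers lay below the H-RFI median. The lowest steer of all was H-RFI 5633, followed by L-RFI steers 2064, 5632 and 1668. The fitted log2 fold change was -1.30 (SE 0.44, unadjusted p = 0.00709), -1.25 without the 5 libraries (adjusted p = 0.0728), and -0.53 with the covariate (unadjusted p = 0.183).

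By edgeR's quasi-likelihood test on all 19 libraries, the other named genes of fat and ketone use did not reach an unadjusted p of 0.05. PDK4, which blocks pyruvate entry to the citric acid cycle and so favours fat as fuel, was at 31.04 to 498 CPM in L-RFI (median 210) and 58.4 to 566 CPM in H-RFI steers (median 222), with a log2 fold change of -0.21 (SE 0.47). Of 7 tested genes of lipid synthesis and fat cells, 0 had an unadjusted p under 0.05 (11.6% of all genes tested), with a median of -0.09. That median was -0.52 without the 5 libraries, -0.71 with the covariate and 0.34 without H-RFI steer 2069. With sample quality weights in limma voom it was -1.08, and 3 of the 7 were called, all lower, where 16.5% of all genes tested were called. FASN, the fatty acid synthase, was at 25.1 to 281 CPM in L-RFI and 19.9 to 288 CPM in H-RFI steers, with 0.50 (SE 0.58). BDH1, a mitochondrial enzyme of ketone use, reached 56.9 and 49.4 CPM in H-RFI steers 2272 and 5605 against 15.9 CPM in the highest L-RFI steer (-1.21, SE 0.62, and -0.65 without steer 2272).

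Respiratory chain transcripts followed the 5 libraries. MT-CO3 (ENSBTAG00000043560), a mitochondrially encoded oxidase subunit, was at 47914 to 176883 CPM in the 5 libraries and 51595 CPM in H-RFI steer 1782, and at 8511 to 25395 CPM in the other 13. Its log2 fold change was 0.92 (SE 0.54), -0.09 without the 5 libraries and -0.47 with the covariate. MT-ND3, a subunit of complex I, had 1.10 (SE 0.54), 0.24 and -0.21 in the same order.

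Plasma protein transcripts, which the liver makes, were those with the largest fold changes, and 1 steer set them. All 10 tested were negative and 8 had an unadjusted p under 0.05, against 52% and 6.67% of all genes tested, with a median of -2.32. FGB (ENSBTAG00000022120), a fibrinogen chain, was at 4.48 to 83.2 CPM in L-RFI (median 28.1) and 2.98 to 1960 CPM in H-RFI steers (median 21.8). Steer 5616 stood at 1960 CPM and steer 2272 at 198 CPM. The log2 fold change was -2.76 (SE 1.06, unadjusted p = 0.0166) with all steers and -0.33 without steer 5616. Without that steer the list median was 0.06, and DESeq2 gave a median of 0.14 with all steers. ACSM1 (ENSBTAG00000001417), a medium-chain fatty acid activating enzyme of liver and kidney, was also highest in steer 5616, at 81.3 CPM against 15.8 CPM or less in every other steer.

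**Figure D4:**
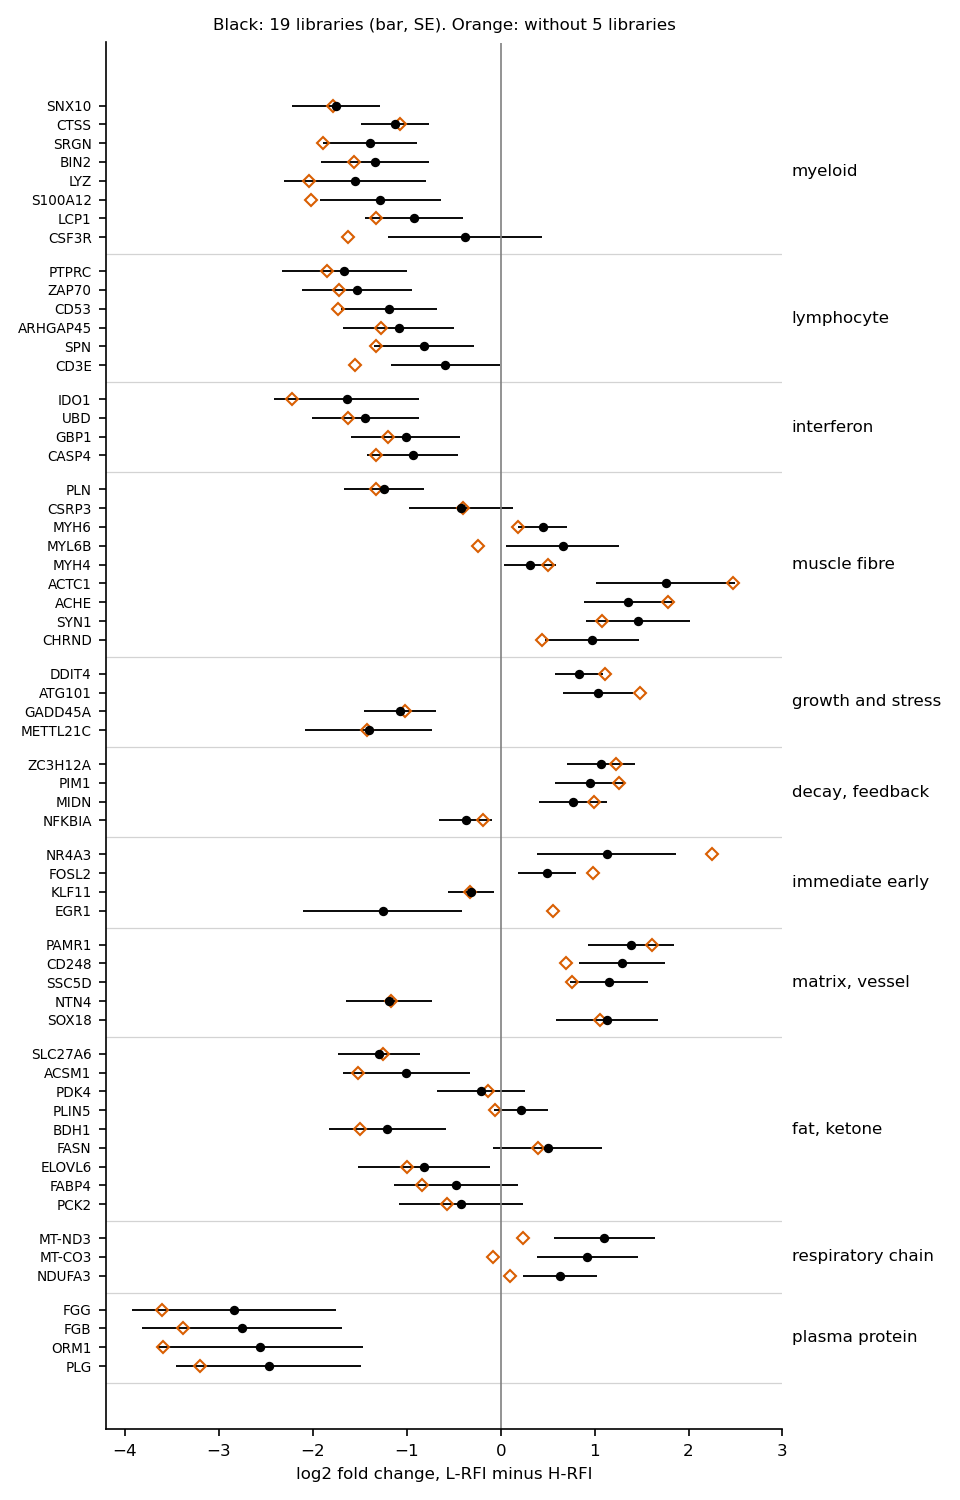
Points are log2 fold changes (L-RFI minus H-RFI) of named genes by group, black with SE for all 19 libraries and orange without the 5 libraries. The white blood cell and interferon genes shown lie left of 0 in both settings, while EGR1, MYL6B, PLIN5 and MT-CO3 change side and MT-ND3 lies nearer to 0 without the 5 libraries.

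Beyond these groups, the named genes with the smallest p included MAGIX (1.196, SE 0.33), a PDZ-domain protein, and KCNE5 (1.79, SE 0.51), a subunit that modulates potassium channels. KCNE5 was at 0.634 to 6.43 CPM in L-RFI (median 2.92) and 0 to 3.17 CPM in H-RFI steers (median 0.701), and 8 of 9 L-RFI steers lay above the H-RFI median. On the lower side were SLC4A7 (-1.59, SE 0.51), a sodium bicarbonate carrier, TRMT13 (-1.27, SE 0.45), a tRNA methyltransferase, and EML6 (-1.41, SE 0.47). All 9 L-RFI steers lay below the H-RFI median for SLC4A7 and TRMT13, and 8 of 9 for EML6. KCNE5, SLC4A7, TRMT13 and EML6 were called without the 5 libraries (adjusted p = 0.0687 to 0.0738), and MAGIX was not (adjusted p = 0.225). With the share of reads on no gene as a covariate the log2 fold changes were 1.184 for KCNE5 (unadjusted p = 0.0226), -0.49 for SLC4A7 (p = 0.191), -0.29 for TRMT13 (p = 0.322), -0.66 for EML6 (p = 0.162) and 0.56 for MAGIX (p = 0.0904).

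The RFI difference on grass was then set against those of the same breed on concentrates and of CH steers on grass, in 1 model of 105 libraries and 10287 genes. These comparisons used 9 to 11 steers a class, except 8 and 8 in HF-H2, and some HF steers occur in several phases. Between HF-ZG and HF-H1, 0 genes (0%) differed at an adjusted p under 0.1, with 290 (2.82%) at an unadjusted p under 0.05. Between HF-ZG and HF-H2 the numbers were 0 (0%) and 167 (1.62%). limma voom with the steer as a replicate block also called 0 genes in both, with 309 and 117 at an unadjusted p under 0.05.

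ACTC1 had a log2 fold change of 1.75 (SE 0.59) in HF-ZG, -0.33 (SE 0.57) in HF-H1 and -1.73 (SE 0.65) in HF-H2, and the difference from HF-H2 was 3.48 (unadjusted p = 0.000146, adjusted p = 1.00). In limma voom with the steer as a replicate block that difference was 1.13 (unadjusted p = 0.249). SNX10 had -1.77 (SE 0.55) in HF-ZG, 0.22 (SE 0.53) in HF-H1, -0.19 (SE 0.57) in HF-H2 and -2.52 (SE 0.55) in CH-ZG. SLC27A6 had -1.31 (SE 0.57) in HF-ZG, -1.08 (SE 0.57) in CH-ZG, 0.36 (SE 0.53) in HF-H1 and -0.78 (SE 0.60) in HF-H2. These CH-ZG values include H-RFI steer 571, described below. HF-ZG minus CH-ZG was 0.75 for SNX10 and -0.23 for SLC27A6 by edgeR. In limma voom with the steer as a replicate block it was -0.81 and -1.04. None of these differences passed the adjustment.

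Between HF-ZG and CH-ZG, 211 genes (2.05%) differed, with 724 (7.04%) at an unadjusted p under 0.05, and all 211 had a less negative or more positive log2 fold change in HF-ZG. Named ones were plasma proteins (FGB, difference 4.30, and ORM1, 4.77) and metabolic enzymes (ACSM1, 5.09, PCK2, 4.04, and ELOVL6, 4.17). In CH-ZG the H-RFI steer 571 held 20913 CPM of FGB, here without TMM factors, against 38.1 CPM in the next steer, and 1547 CPM of ACSM1 against 7.67 CPM. Without steer 571, 0 genes differed, with 235 at an unadjusted p under 0.05, and the differences were -2.39 for FGB and 0.02 for ACSM1. Without the libraries under 10% reads on no gene, in any group, 0 genes differed. limma voom called 0 genes here with the steer as a replicate block and 0 without it, with 194 and 236 at an unadjusted p under 0.05.

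**Figure D5:**
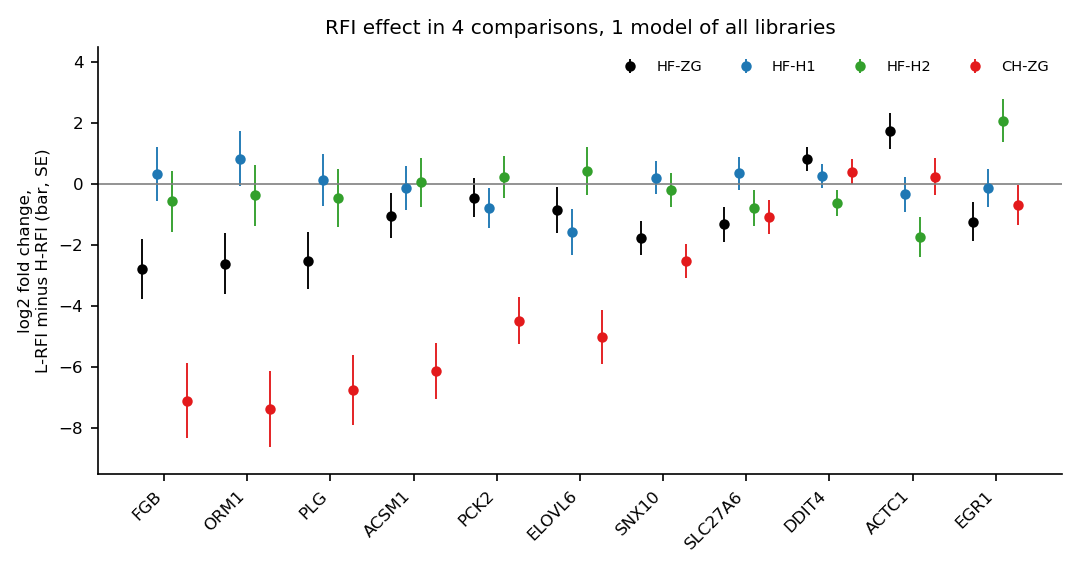
Log2 fold changes (L-RFI minus H-RFI, bars are SE) of 11 genes in HF-ZG (black), HF-H1 (blue), HF-H2 (green) and CH-ZG (red), from 1 model of all libraries. In CH-ZG, FGB, ORM1, PLG, ACSM1, PCK2 and ELOVL6 lie below -4, SNX10 is negative in both grass comparisons, and ACTC1 is positive in HF-ZG and negative in HF-H2.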

How the data were processed

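Muscle biopsies of 20 HF-ZG steers were analysed, 19 after the depth limit, as single-end reads of stranded mRNA libraries. Per the labels, the authors checked reads with FastQC 0.11.5 and aligned them with STAR 2.5.1. The deposited values are raw counts per Ensembl gene (24616 genes), neither normalized nor filtered by the authors, and reverse-strand counts were used (98.4% to 99.3% of stranded counts). The labels name genome build UMD3.1 and the methods ARS-UCD1.2, so no coordinates are given. Gene names came from the study's first supplementary table (151 of 159 in the files). The table at hand of another assembly gives no Ensembl identifiers, and the study's fold changes and p-values were not used.

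A gene was kept where 50% of the samples or more reached 1 CPM. L-RFI and H-RFI steers were compared with edgeR's quasi-likelihood test on TMM-normalized counts and called at a Benjamini-Hochberg adjusted p under 0.1 and a fold change above 1.5. The SE of a log2 fold change is its size divided by the root of its F value. Differences between comparisons were contrasts in 1 model of the 12 group means, called at an adjusted p under 0.1. The study used edgeR's exact test, kept as an alternative. Steers of the classes differ, so no block applied within HF-ZG, and steer as a block (consensus correlation 0.138) was an alternative for the contrasts. Labels give single steers, and p-values within HF-ZG measure the spread between them. The edgeR contrasts took libraries of 1 steer from several phases as independent. Only limma voom with the steer as a block took these repeats into account.

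Named were the 10 genes with a name and the smallest p in each direction, the up to 4 members with the smallest p of each list with at least 3 tested members, genes the study's text or tables name for HF-ZG, and members of lists of 3 or fewer tested members. ENSBTAG00000039727, RPS3A, MX1, PLEK and MYH8 were chosen after their values were seen. Members and lists were chosen with earlier results of these data known. Lists are described by counts and medians. Scripts were tested on simulated data. Fits ran in R (4.3.3) with DESeq2 (1.42.0), limma (3.58.1) and edgeR (4.0.16), and permutation tests and plots in Python (3.11.15) with scipy (1.17.1), matplotlib (3.10.9) and numpy (2.4.6). Alternatives were other tests, normalization by RLE, other filters, unstranded counts, all libraries, other thresholds and leaving out each steer. Reads on no gene (setting and covariate), and leaving out steers in the contrasts, were added after seeing the data.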

Additional observations from a re-analysis of the deposited data

Results flagged for a closer look

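In the 132 groups of 9 or 10 steers formed by 66 named genes and 2 RFI classes, 48 held a highest or lowest steer farther from its neighbour than Dixon's 95% critical value allows. Chance gives about 1 in 20 groups for normally distributed values, whereas these levels are linear and skewed upwards and many of the genes vary together, so the number says nothing about chance. All 48 were highest values, in 11 steers. All levels here are normalized CPM.

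Several white blood cell and interferon genes were led, within their class, by H-RFI steer 1639 or L-RFI steer 2064. For PTPRC and ARHGAP45 the highest L-RFI steer was 5612, at 7.85 and 4.09. H-RFI steer 1639 stood apart for SRGN (31.5), PTPRC (33.4), LYZ (22.8), LCP1 (20.9), CD3E (12.2), CD53 (8.95), SPN (8.89) and BIN2 (6.47). L-RFI steer 2064 stood apart for CSF3R (30.6), IDO1 (15.1), SRGN (14.2), CD3E (12.7), LCP1 (11.4), S100A12 (7.11), SPN (6.80), CD53 (5.87) and CASP4 (5.56), and also for MT-CO3 (176883), MT-ND3 (54062) and NDUFA3 (154). Steer 2064 had 6.43% of its grass reads on no gene and 15.9% in its H1 library. The part of library quality in these values was not tested.

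Liver transcripts were highest in H-RFI steer 5616, at 1960 for FGB, 1378 for FGG, 438 for ORM1, 311 for PLG and 81.3 for ACSM1. L-RFI steer 1668 had the highest ORM1 of its class, at 27.0. Muscle genes stood apart in H-RFI steer 2272, at 1763 for CSRP3, 1762 for MYL6B and 64.8 for METTL21C, and this steer also led IDO1 (63.6) and GBP1 (8.39). L-RFI steer 5632 held 1897 for MYL6B and 891 for MYH6.

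Of the remaining values, L-RFI steer 1668 had SYN1 at 32.5, CD248 at 25.3, ZC3H12A at 23.2 and SSC5D at 12.3. H-RFI steer 5633 had SYN1 at 11.2, ZFPM1 at 7.12, ACHE at 6.73 and KCNE5 at 3.17. H-RFI steer 2242 had EGR1 at 323 and SSC5D at 4.02. H-RFI steer 5605 had PLIN5 at 34.9, NTN4 at 8.21 and EML6 at 6.66. H-RFI steer 2087 had GADD45A at 42.8, and L-RFI steer 2065 had BDH1 at 15.9.

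The RFI difference of 211 genes was not the same in HF-ZG and CH-ZG by the contrast between them (edgeR's quasi-likelihood test, adjusted p under 0.1). The differences were 5.09 for ACSM1, 4.77 for ORM1, 4.30 for FGB, 4.24 for PLG, 4.17 for ELOVL6 and 4.04 for PCK2 on the log2 scale. Without CH-ZG H-RFI steer 571 the count was 0.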

How the results depend on the processing

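Genes called within HF-ZG numbered 0 by edgeR's quasi-likelihood test, 629 when the 5 libraries under 10% reads on no gene were left out, 1742 by limma voom with sample quality weights, 1 by DESeq2, and 0 in every other alternative and with any 1 steer left out. Genes that differed between HF-ZG and CH-ZG numbered 211, but 104 at an adjusted p under 0.05, 0 without the libraries under 10% reads on no gene, 0 by limma voom without a replicate block and 0 with the steer as a replicate block, 115 to 321 with any 1 HF-ZG steer left out (lowest without L-RFI steer 1668, highest without H-RFI steer 5616), and 0 to 307 with any 1 CH-ZG steer left out (0 without H-RFI steer 571). The block changed no call in the other 2 contrasts. The classes of HF-ZG hold different steers and share no number, so no block applied there. With the dropped library, the mean log10 depth difference was -0.205 instead of 0.0678. Of 66 named genes, 53 kept their direction in every alternative that tested them and 13 did not, and 9 were not among the genes of the 1 model of all libraries. With all HF-ZG libraries FGG had 0.51 and FGB 0.49. Without the 5 libraries MYL6B had -0.25, PLIN5 -0.060, MT-CO3 -0.086 and EGR1 0.56. With the share of reads on no gene as a covariate FASN had -0.23, MT-ND3 -0.21, MT-CO3 -0.47 and NDUFA3 -0.11. EGR1 had 0.68 by DESeq2, 0.99 by limma voom, 1.46 with quality weights, and -1.40 to 0.72 with any 1 steer left out (highest without H-RFI steer 2242). CSRP3 had 0.27 by limma voom, 0.51 with quality weights, and -0.55 to 0.28 with any 1 steer left out (highest without H-RFI steer 2272). With any 1 steer left out, PCK2 had -0.83 to 0.095, ACSM1 -1.22 to 0.041 and ORM1 -3.02 to 0.38, each highest without H-RFI steer 5616, and DESeq2 gave ORM1 0.45. The cause of these changes was not tested. Genes under 0.774 CPM in the shallowest library rest on fewer than 3 counts there.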

Other observations

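The ribosomal protein gene RPS3A (ENSBTAG00000006383), chosen after its values were seen, was present or nearly absent by steer. Of the 19 HF-ZG steers, 2 of 9 L-RFI and 8 of 10 H-RFI steers lay at 4.5 to 9.87 CPM, here counts per total without TMM factors, and the others at 0.66 CPM or less. The 8 steers with a second library from another feeding phase were each on the same side of 1 CPM in both phases, 3 above and 5 below. The log2 fold change between the classes was -1.61 (edgeR's quasi-likelihood test, unadjusted p = 0.0705). Ribosomal protein genes have near-identical copies elsewhere in the genome, so these counts are uncertain.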
